A study of Mus musculus with 12 samples.

Results

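The mouse mitochondrial genome carries 37 genes, and their counts in hematopoietic stem cells were compared between wild-type mice and mice with a disrupted gene for paraoxonase 2 (Pon2). All genes whose symbol begins with mt- were taken, which gave 13 protein-coding genes, 2 ribosomal RNA (rRNA) genes and 22 transfer RNA (tRNA) genes among the 49585 genes of the count tables. Symbols, positions and gene classes came from the GENCODE M21 annotation of the GRCm38 genome, and each position below refers to that build. The 12 libraries were made from bone marrow of 6 wild-type (WT) and 6 Pon2-/- mice, all on the C57BL/6J background and 10 to 14 weeks old. WT animals were bought from Charles River. The Pon2-/- line carries a gene trap vector with the β-geo reporter and flanking loxP sites in an intron of Pon2, so the gene is disrupted in every cell of the animal. Cells with the surface pattern Lin-, Sca1+, ckit+, CD135-, CD150+ were sorted at 10 cells per well and 8 wells per mouse. According to the study's methods this gate holds long-term stem cells together with an early multipotent progenitor. The libraries followed the Smart-seq2 protocol, which primes polyadenylated RNA and amplifies it. With WT animals from a supplier and Pon2-/- animals from a line of their own, genotype and line of origin cannot be told apart.

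Mitochondrial DNA is a small circular genome inherited from the mother. It is transcribed from both strands into long precursors, and most of the tRNAs lie between the other genes, where their excision releases the messenger and ribosomal RNAs. Its messengers encode core subunits of the respiratory chain and of ATP synthase, and its rRNAs and tRNAs translate them inside the organelle. In the course of evolution pieces of this genome were also copied into nuclear chromosomes, and such copies can be nearly identical to the original. Hematopoietic stem cells are known for resting with a low respiratory activity.

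The libraries held 12967791 to 24228280 counts in WT and 14671353 to 23122382 in Pon2-/- samples. Pon2 had 721 to 3828 counts in the WT libraries and 25 to 658 in the Pon2-/- libraries, and the genotypes did not overlap. Pon2 levels were 113 ± 49.3 CPM (counts per 1000000 after TMM scaling) in WT and 25.7 ± 12.2 CPM in Pon2-/- (SD, n = 6 mice each). The difference of -2.13 on the log2 scale (SE 0.57) had an adjusted p of 0.586 in edgeR's quasi-likelihood test and 0.0104 in DESeq2. All 9 stem cell markers examined had counts in every library, with a summed level of 2251 to 2825 CPM in WT and 2188 to 2749 CPM in Pon2-/-. Cd48 and Flt3, genes of progenitors beside the stem cells, summed to 27.2 to 109 CPM in WT and 88.0 to 268 CPM in Pon2-/-, with Cd48 medians of 41.8 and 135 CPM. The summed level of 5 erythroid markers ranged from 0 to 15.2 CPM in WT and from 0.733 to 24.3 CPM in Pon2-/-, and that of 5 T-cell markers from 0.0424 to 39.7 and from 12.5 to 57.7 CPM. Of these, Car1, Cd3e and Trbc2 were at 0 in all libraries, whereas the T-cell marker Lck had counts in 11. The 5 B-cell markers summed to 25.5 to 319 CPM in WT and 58.8 to 445 CPM in Pon2-/-. The summed level of 5 neutrophil markers ranged from 1.35 to 8190 CPM in WT and from 68.6 to 13383 CPM in Pon2-/- libraries, and the part of these markers in the results below was not tested. In such pooled cells, fewer cells of a type and less RNA per cell cannot be told apart.

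The members differed widely in how much of their sequence can be told apart from other transcripts. STAR, the aligner behind the count tables, gives a count to a gene only for a read that aligns best at a single place in the genome. Each member was therefore cut into all windows of 50 bases, and a window was called unique when no other annotated transcript held it on either strand. Of 13628 windows, 9268 were unique (68.0%; 95% Wilson interval 67.2 to 68.8%, counting error only). The 2 rRNA genes, mt-Nd1, mt-Nd6 and mt-Cytb were nearly or fully unique, at 99.0% for mt-Rnr2 and 100% for the others. The value was 92.4% for mt-Nd5, 91.8% for mt-Nd2, 48.9% for mt-Co1 and 37.8% for mt-Nd4. It fell to 2.01% for mt-Nd3, 1.21% for mt-Nd4l, 0.475% for mt-Atp6, 0.136% for mt-Co3 and 0% for mt-Co2. These last 5 genes each had between 0 and 814 counts over the 12 libraries, whereas 7 of the 8 protein genes whose unique share lay above 30% had at least 71309 counts each. The exception was mt-Atp8, with a unique share of 100% among annotated transcripts and 0 counts.

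The 5 lowest values belonged to genes copied in 1 stretch of nuclear DNA. The bases chrM:6390-11042, which run from within mt-Co1 to within mt-Nd4, had their counterpart at chr1:24611535-24616188 on the minus strand. The chromosome 1 stretch held 7 annotated pseudogenes, each a copy of 1 mitochondrial protein gene or part of it. Over 4140 aligned bases the copies differed from the mitochondrial genes at 2. Positions are counted from 1 at the 5′ end of the mitochondrial gene, whose base is given first. One difference was A1066T in mt-Co1 against Gm29216, and the other was T3C in mt-Nd3 against Gm28438. The spacing between neighbouring copies equalled that on the mitochondrial genome in all intervals but 1. Between the copies of mt-Nd3 and mt-Nd4l, the interval that on the mitochondrial genome holds mt-Tr, chromosome 1 had 74 bases and the mitochondrial genome 73.

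**Figure D1:**
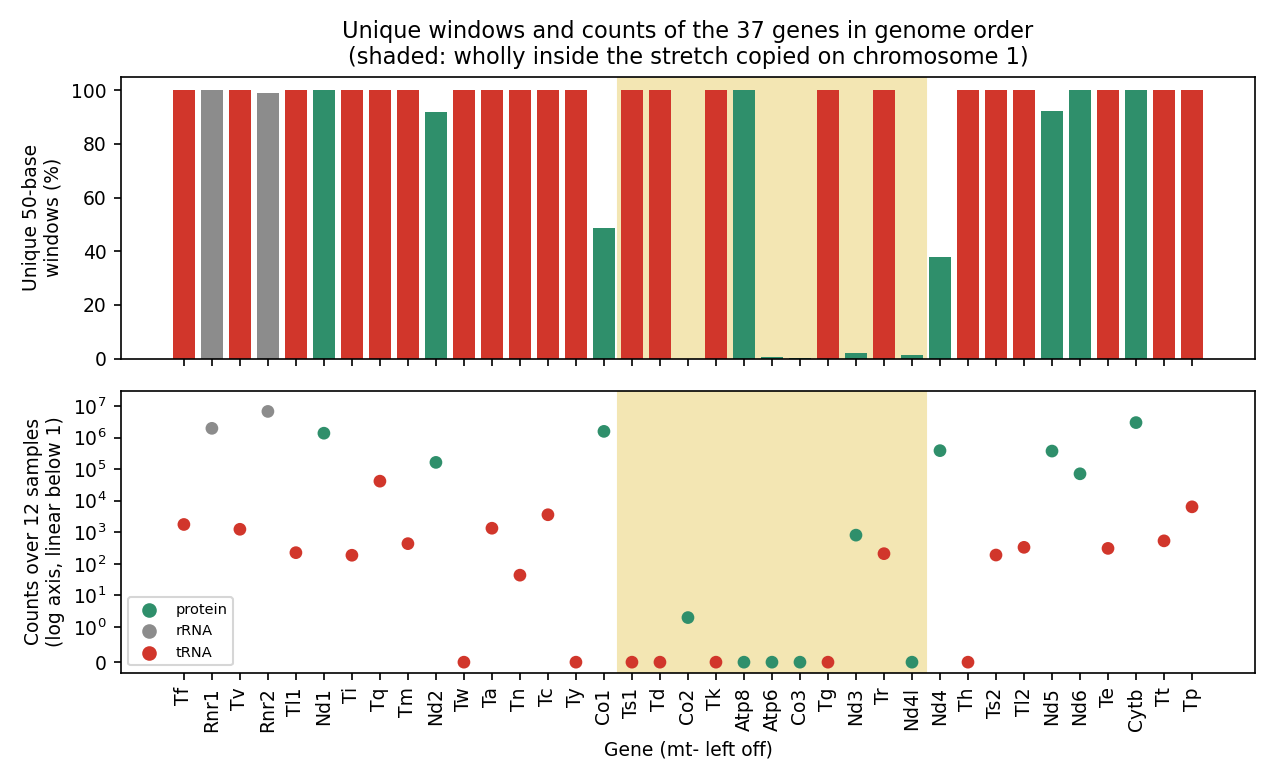
Percent of 50-base windows found in no other annotated transcript (top) and counts summed over the 12 libraries on a log axis that is linear below 1 (bottom) for the 37 genes in genome order, coloured by class, with the 11 genes wholly inside the copied stretch shaded. Of the shaded genes 8 lie at 0, and mt-Nd3 and mt-Tr are the shaded genes with more than 2 counts; the tRNA genes and mt-Atp8 there are at 100% among annotated transcripts, and the chromosome 1 sequence between the annotated copies was not analysed here.

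In all, 11 members were listed at 0 in every library. Inside the copied stretch these were the ATP synthase genes mt-Atp6 and mt-Atp8, the cytochrome c oxidase gene mt-Co3, the complex I gene mt-Nd4l and the tRNA genes mt-Ts1, mt-Td, mt-Tk and mt-Tg. Outside it they were the tRNA genes mt-Tw, mt-Ty and mt-Th, for tryptophan, tyrosine and histidine. The cytochrome c oxidase gene mt-Co2 had 1 count in a WT and 1 in a Pon2-/- library. Reads that fit the stretch and its copy equally well are not counted, so a 0 there does not measure how much RNA of the gene the cells held. A floor of 3 counts corresponded to 0.121 to 0.235 CPM, depending on the library.

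The 37 genes together took 4.89% to 8.54% of all counts in WT libraries (median 7.06%) and 5.07% to 9.55% in Pon2-/- libraries (median 7.72%). The genotypes overlapped over most of this range. The means were 6.94 ± 1.45% in WT and 7.53 ± 1.66% in Pon2-/- (SD, n = 6), a difference of 0.591 percentage points that was smaller than either SD. The rRNA genes held 4.03 ± 1.19% of counts in WT and 4.10 ± 1.20% in Pon2-/-. The protein genes held 2.89 ± 0.334% and 3.41 ± 0.502%, and the tRNA genes 0.0222 ± 0.00513% and 0.0307 ± 0.0136%. No class separated the genotypes. In each library the 5 genes mt-Rnr2, mt-Rnr1, mt-Cytb, mt-Co1 and mt-Nd1 made up 92.2% to 94.5% of the mitochondrial counts.

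**Figure D2:**
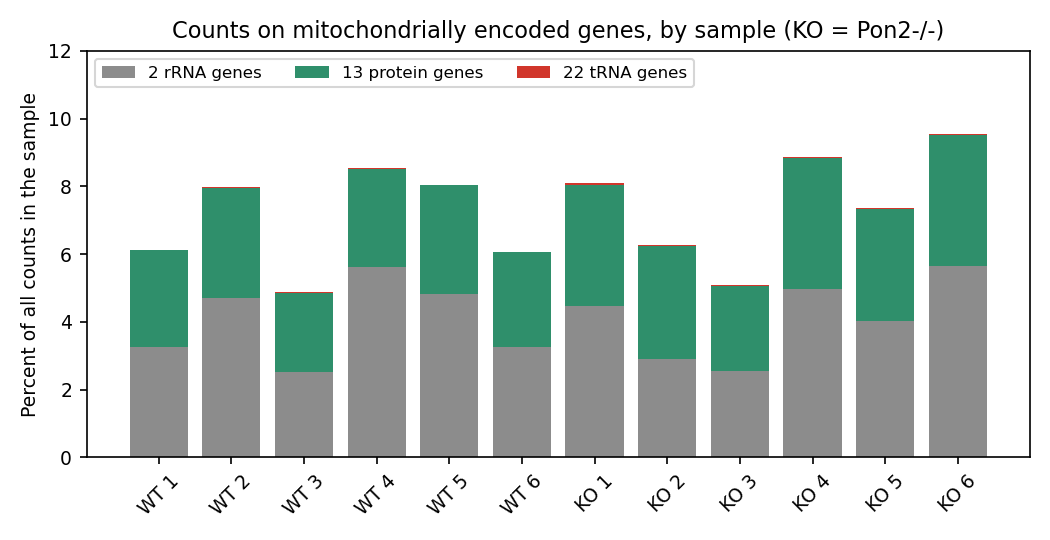
Percent of all counts in each library that fell on the rRNA, protein and tRNA genes of the mitochondrial genome, stacked, for 6 WT and 6 Pon2-/- (KO) mice. The totals run from 4.89% to 8.54% in WT and from 5.07% to 9.55% in Pon2-/-, and the tRNA layer is barely visible at up to 0.056% of counts.

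With edgeR's quasi-likelihood test across the 11848 genes that passed its filter on low counts, 23 members could be tested, of which 8 were protein genes, 2 rRNA genes and 13 tRNA genes. Calls needed a Benjamini-Hochberg adjusted p below 0.05 together with a log2 fold change beyond 1 in either direction. Only mt-Nd3 was called among the 23, against 0.203% of all genes tested; it had passed the filter through its WT libraries. The groups did not overlap in CPM for mt-Nd3 alone, against 0.633% of all genes tested. At an unadjusted p below 0.05, edgeR listed 4 of the 23 members, namely mt-Nd3, mt-Cytb, mt-Tf and mt-Ts2, and 3.13% of all genes tested. DESeq2, which tested genes with lower counts as well, called mt-Nd3, mt-Tr and mt-Tf, and 1.77% of the genes it gave an adjusted p. A two-sided exact permutation test over all ways to divide the mice gave an unadjusted p below 0.05 for 3 of the 23 tested members, against 5.87% of all genes tested. These 3 were mt-Nd3, mt-Tf and mt-Cytb, and mt-Tr was below it among the members that did not pass the filter. The fitted change was above 0 for 20 of the 23 tested members and below 0 for 3, with a median of 0.30 on the log2 scale against -0.01 over all genes tested. Without WT replicate 3 and Pon2-/- replicate 1, which stood apart in tRNA counts, it was above 0 for 12 of 22 members.

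The gene mt-Nd3 (ENSMUSG00000064360.1, chrM:9459-9806, plus strand) encodes a small subunit of complex I, the first enzyme of the respiratory chain. Its counts were 186, 172, 131, 93, 146 and 86 in WT replicates 1 to 6, and 0 in each of the 6 Pon2-/- replicates. Its nuclear copy Gm28438 (ENSMUSG00000101939.1, chr1:24612775-24613119, minus strand) had 4, 6, 5, 6, 4 and 5 counts in WT and 294, 305, 192, 211, 314 and 236 in Pon2-/- mice. For both genes the genotypes were fully apart, in opposite directions. Their first 60 bases are shown because they hold the base at which both sequences differ, printed as a capital, at chrM:9459-9518 on the plus strand and chr1:24613060-24613119 on the minus strand.
mt-Nd3: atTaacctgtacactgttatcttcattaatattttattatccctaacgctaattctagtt
Gm28438: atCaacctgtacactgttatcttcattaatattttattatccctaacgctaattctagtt

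The copy matched mt-Nd3 at every other one of 345 aligned bases. Of the 299 windows of mt-Nd3, 6 were unique. They comprised 3 windows that cover T3C and 3 that reach past the annotated end of the copy. The chromosome 1 sequence beyond that end was not searched, so the latter 3 need not be unique in the genome. Reads elsewhere in the gene fit both places equally well and are left out of such counts. The base that the mitochondrial DNA of these mice carries at chrM:9461 was not measured.

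Levels of mt-Nd3 were 5.28 to 10.6 CPM in WT, with a mean of 7.57 ± 2.10 (SD, n = 6), and 0 in Pon2-/-. With a floor of 3 counts over the 6 Pon2-/- libraries together, the counted level of mt-Nd3 was at least 271-fold lower there. A floor of 3 counts in each library would give a smaller bound. Neither bound measures the RNA of the gene, since few of its windows can be counted. Its adjusted p was 0.00454 in edgeR's quasi-likelihood test and 8.58e-21 in DESeq2. Gm28438 rose from a mean of 0.292 CPM in WT to 14.2 ± 2.17 CPM in Pon2-/-. With the libraries of each group pooled, 30 counts in WT and 1552 in Pon2-/-, the ratio of CPM was 51.7. The WT side of this ratio rests on 4 to 6 counts per library, near the floor of 3. The fitted log2 change of Gm28438 was 5.57 (SE 0.76), with an adjusted p of 0.00411 in edgeR's quasi-likelihood test and 3.09e-55 in DESeq2. Each of the pair had passed edgeR's filter through the genotype in which it is high. In both cases the two-sided exact permutation test gave p = 0.00216, the smallest it can give with 6 against 6 mice. The edgeR calls were lost when every gene with at least 1 read was tested, with adjusted p of 0.227 for mt-Nd3 and 0.0943 for its copy.

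The share of the pair's counts that fell on mt-Nd3 was 93.9% to 97.9% in WT libraries and 0% in Pon2-/- libraries. With 192 to 314 counts on the pair in each Pon2-/- library, the upper Wilson limits on that 0 were 1.21% to 1.96% (95%, counting error only). The summed level of mt-Nd3 and Gm28438 was 5.48 to 10.9 CPM in WT (median 7.91) and 10.9 to 17.6 CPM in Pon2-/- (median 14.4). Adding 2 genes that differ in opposite directions must reduce the contrast, so the smaller contrast is no result of its own. The summed levels still did not overlap, with 10.89 CPM the highest in WT and 10.92 CPM the lowest in Pon2-/-. The effect of the base difference on how many reads could be counted in each genotype was not tested.

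**Figure D3:**
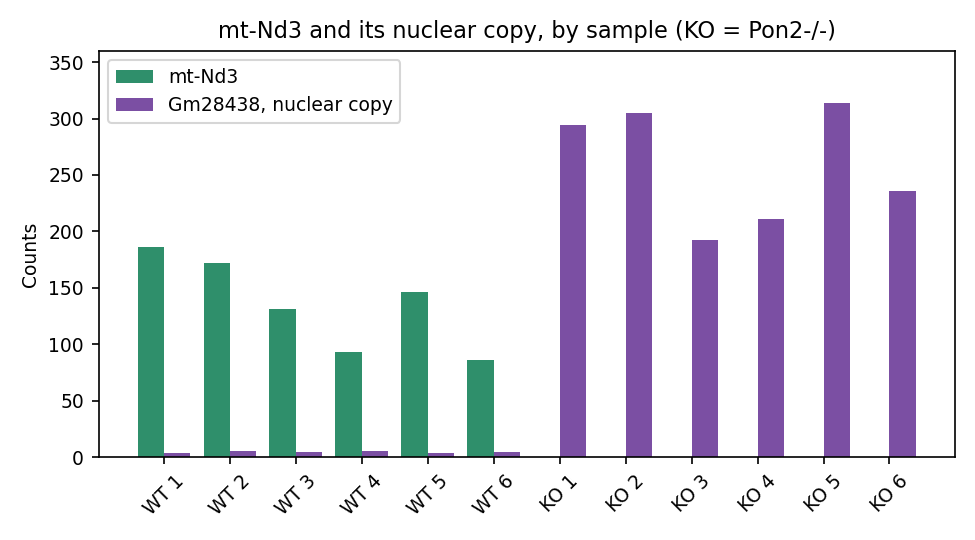
Counts on mt-Nd3 and on its nuclear copy Gm28438 in each of 6 WT and 6 Pon2-/- (KO) mice. The mt-Nd3 bars stand at 86 to 186 in WT and at 0 in Pon2-/-, and the Gm28438 bars at 4 to 6 in WT and 192 to 314 in Pon2-/-.

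The arginine tRNA gene mt-Tr follows mt-Nd3 on the same strand at chrM:9808-9875, with 1 free base between them. It was singled out after its values were seen, as the other member wholly inside the copied stretch with more than 2 counts. Its counts were 21, 3, 138, 17, 18 and 8 in WT and 4, 2, 0, 0, 0 and 0 in Pon2-/- replicates 1 to 6. All WT libraries had reads, 2 of 6 Pon2-/- libraries did, and the groups overlapped at 3 and 4 counts. The group totals were 205 and 6 counts, and 67 and 6 without WT replicate 3. The gene did not pass edgeR's filter. DESeq2 gave a log2 change of -4.89 with an adjusted p of 0.0233, and the two-sided exact permutation test on log2 CPM gave an unadjusted p of 0.00433. The whole gene is shown because it lies in the interval whose chromosome 1 counterpart is 1 base longer.
mt-Tr: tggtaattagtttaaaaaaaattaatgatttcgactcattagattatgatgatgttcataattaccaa

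The other 6 copies on chromosome 1 had 0 to 30 counts in any library. DESeq2 called none of them, against 1.77% of the genes it gave an adjusted p. Only Gm29216 and Gm28437 among them passed edgeR's filter, and neither was called. Gm29216 had a log2 difference of 1.01 (SE 0.55). Its unadjusted p in the two-sided exact permutation test was 0.0476, against 0.182 or more for the rest of these 6. The genotypes overlapped for each of them. Across the genome, 17 genes of the table held a sequence at least 90% identical to a member over at least 50% of either sequence, 16 of them pseudogenes. The exception was the protein-coding gene Cep295, by short matches to 2 tRNA genes. Of the 17, 6 passed edgeR's filter and 1, Gm28438, was called, against 0.203% of all genes tested. Gm28438 had passed the filter through its Pon2-/- libraries. The chromosome 2 copy of mt-Co1, Gm13340, averaged 8.06 ± 1.24 CPM in WT and 8.92 ± 2.35 CPM in Pon2-/-. The copy of mt-Co2 beside it, Gm13341, had 3.55 ± 1.14 and 4.77 ± 0.321 CPM. Both differed by less than edgeR's quasi-likelihood test could call (adjusted p = 1.00 each).

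The remaining protein genes were compared by level per length, in CPM per kilobase over all 12 libraries. After the 16S rRNA gene mt-Rnr2, at 20063 ± 5437, came mt-Cytb at 11912 ± 2024, then the 12S rRNA gene mt-Rnr1 at 9811 ± 3417. The complex I gene mt-Nd1 stood at 6685 ± 1284 and the cytochrome c oxidase gene mt-Co1 at 4654 ± 768. The complex I genes mt-Nd4, mt-Nd5, mt-Nd2 and mt-Nd6 followed at 1286 ± 272, 945 ± 234, 726 ± 189 and 641 ± 219. The order held in all 12 libraries for 5 of the 8 neighbouring pairs. It was turned in 3 libraries for mt-Cytb over mt-Rnr1 and for mt-Nd2 over mt-Nd6, and in 1 library for mt-Rnr1 over mt-Nd1, so the levels of these neighbours were within their spread.

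The order of mt-Nd1 and mt-Co1 depended on the length used. Per 1000 unique windows, mt-Co1 stood at 9035 ± 778 CPM in WT and 10638 ± 1909 CPM in Pon2-/-, against 6499 ± 1220 and 7593 ± 1349 CPM for mt-Nd1. On this scale mt-Co1 was the higher of the pair in 12 of 12 libraries, whereas per kilobase it was the lower in all 12. The read length was not given in the sources used here, so the window of 50 bases is an assumption.

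**Figure D4:**
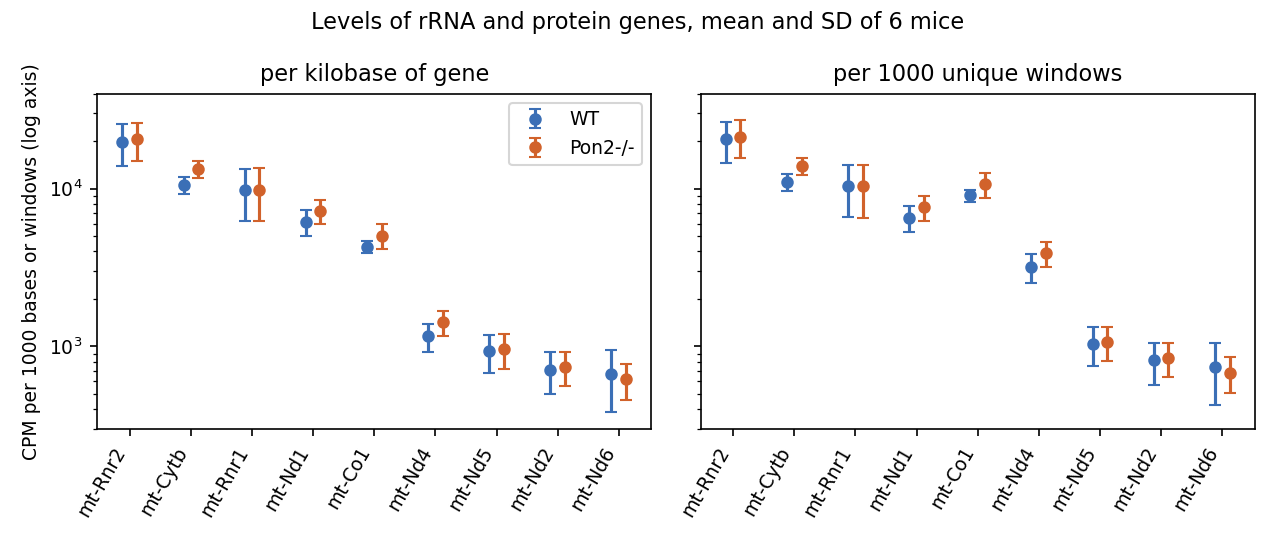
Levels of 2 rRNA and 7 protein genes on a log axis, as CPM per kilobase of gene (left) and CPM per 1000 unique 50-base windows (right), with the mean and SD of 6 WT and 6 Pon2-/- mice. The point for mt-Co1 moves from 4275 to 9035 in WT between the panels and passes mt-Nd1, and the error bars of the genotypes overlap for most genes.

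Among the protein genes outside the copied stretch, mt-Cytb (ENSMUSG00000064370.1, chrM:14145-15288), the mitochondrial subunit of complex III, had the lowest unadjusted p. Its levels ran from 9623 over a median of 12123 to 13658 CPM in WT and from 12173 over 15747 to 17323 CPM in Pon2-/-. The ranges overlapped, and 5 of 6 Pon2-/- mice lay above the highest WT mouse. The log2 difference was 0.34 (SE 0.11), with an adjusted p of 0.918 in edgeR's quasi-likelihood test and 0.106 in DESeq2, and an unadjusted p of 0.0108 in the two-sided exact permutation test. It therefore was not called.

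For mt-Co1 (chrM:5328-6872), the catalytic subunit of cytochrome c oxidase, levels were 6604 ± 569 CPM in WT and 7776 ± 1395 CPM in Pon2-/- mice. For mt-Nd1 (chrM:2751-3707) they were 5901 ± 1108 and 6895 ± 1225 CPM. The log2 differences were 0.24 (SE 0.12) and 0.22 (SE 0.15), and neither was called. Both genes had 3 of 6 Pon2-/- mice above the highest WT mouse.

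The complex I gene mt-Nd6 (chrM:13552-14070) is the protein gene of the minus strand and shares that strand with 8 tRNA genes. The count column used is not stated to separate strands, so reads of the opposite strand may be included in these 9 genes. Its levels were 183 to 534 CPM in WT and 185 to 397 CPM in Pon2-/-, with medians of 328 and 347. The log2 difference was -0.11 (SE 0.28). Over the 7 tested protein genes other than mt-Nd3, log2 differences lay between -0.11 and 0.34.

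The 16S rRNA gene had the highest mean level of all members, and the mean of mt-Cytb stood between it and the 12S gene. The 16S gene mt-Rnr2 (chrM:1094-2675) had 19181 to 42655 CPM in WT and 21514 to 42668 CPM in Pon2-/-. The 12S gene mt-Rnr1 (chrM:70-1024) had 5547 to 14473 and 5242 to 14572 CPM. The coefficients of variation were 29.4% and 36.3% in WT and 27.3% and 36.7% in Pon2-/-, for mt-Rnr2 and mt-Rnr1. In WT, those of the 7 tested protein genes other than mt-Nd3 ranged from 8.61% to 42.2% and overlapped with those of the rRNA genes. In Pon2-/- the highest among these 7 protein genes was 25.7%, below both rRNA genes. The log2 differences were 0.06 (SE 0.21) for mt-Rnr2 and 0.00 (SE 0.27) for mt-Rnr1, and their direction turned in several settings.

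The ratio of mt-Rnr2 to mt-Rnr1 counts was compared because both rRNAs come from the same precursor. It ranged from 2.95 to 3.92 in WT (median 3.34) and from 2.93 to 4.10 in Pon2-/- (median 3.64). The means were 3.40 ± 0.407 and 3.57 ± 0.450 (SD, n = 6). The genotypes overlapped almost entirely, and the difference of 0.07 on the log2 scale gave p = 0.528 in the two-sided exact permutation test. The ratio of the gene lengths is 1.66.

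The tRNA genes had few counts. They span 59 to 75 bases, and most adjoin another gene without a gap. A read that touches a pair of genes is not counted for either in such tables. The glutamine tRNA gene mt-Tq held 60.5% to 83.6% of all tRNA counts in WT libraries and 46.8% to 82.1% in Pon2-/- libraries. Its levels were 87.3 to 213 CPM in WT (median 182) and 140 to 275 CPM in Pon2-/- (median 217). The proline gene mt-Tp followed with 17.9 to 31.2 CPM in WT libraries and 24.1 to 53.4 in Pon2-/- libraries. The genotypes overlapped for both, with log2 differences of 0.34 (SE 0.23) and 0.40 (SE 0.40).

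The cysteine gene mt-Tc ranked next, and here single libraries set the means. It had 5.75 to 25.4 CPM in WT (median 9.28) and 4.31 to 96.6 CPM in Pon2-/- (median 8.26). The high values belonged to WT replicate 3 and Pon2-/- replicate 1. The log2 difference was 0.98 (SE 0.89) with all mice and -0.66 without Pon2-/- replicate 1.

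Pon2-/- replicate 1 had the highest level of 11 of the 15 tRNA genes with counts, and WT replicate 3 that of 2. The fitted change was above 0 for 12 of the 13 tested tRNA genes (median 0.53), and for 8 of 12 (median 0.16) without these 2 libraries. Its median over all genes tested was -0.01 in both cases. Coefficients of variation of the tested tRNA genes ranged from 19.2% to 135% in WT and from 25.7% to 167% in Pon2-/-.

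**Figure D5:**
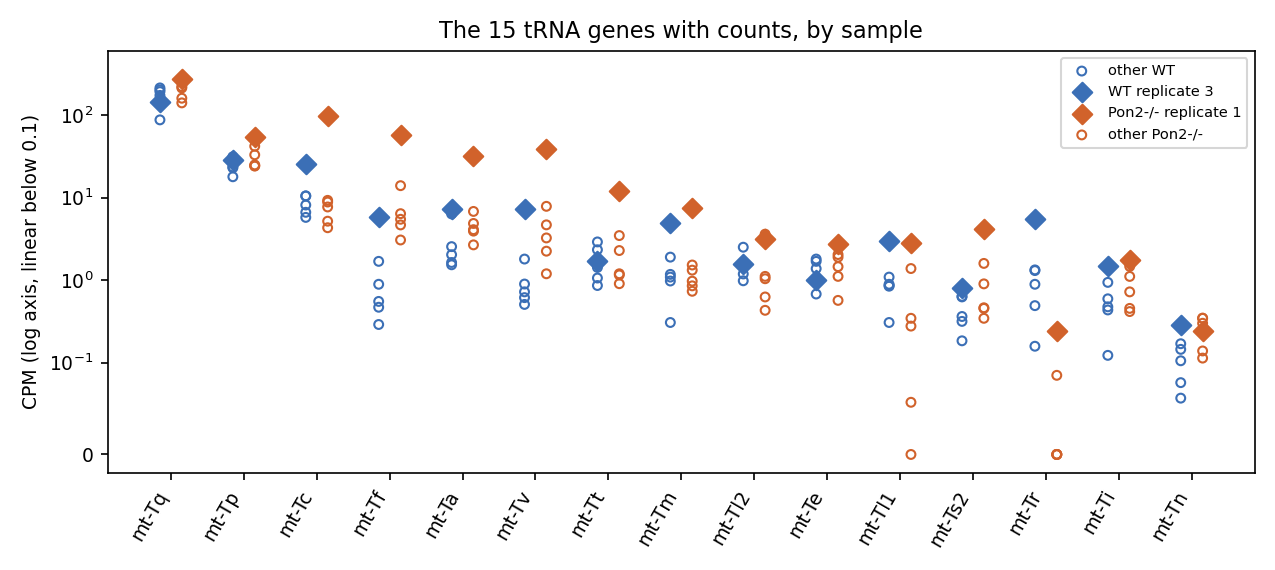
Levels in CPM of the 15 tRNA genes with counts in each mouse, on a log axis that is linear below 0.1, with WT replicate 3 and Pon2-/- replicate 1 drawn as filled diamonds. Pon2-/- replicate 1 is the highest point for 11 of 15 genes, and mt-Tr is the gene whose Pon2-/- points lie at or near 0.

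The phenylalanine gene mt-Tf, at chrM:1-68 the first gene of the mitochondrial map, was singled out after its values were seen because DESeq2 called it. Its counts were 21, 32, 145, 6, 4 and 9 in WT and 955, 148, 82, 201, 118 and 51 in Pon2-/- replicates 1 to 6. Of the 6 Pon2-/- mice 3 lay above the highest WT mouse in CPM, and 5 of 6 WT mice lay below the lowest Pon2-/- mouse. The log2 difference was 3.21 (SE 1.11), with an adjusted p of 1.00 in edgeR's quasi-likelihood test and 0.0221 in DESeq2. It was 2.04 without Pon2-/- replicate 1, 4.25 without WT replicate 3, and 3.09 (SE 0.86) without both, the last with an adjusted p of 0.782 in edgeR's quasi-likelihood test. The two-sided exact permutation test over all mice gave an unadjusted p of 0.00866. The gene is shown whole, and all its windows were unique among annotated transcripts.
mt-Tf: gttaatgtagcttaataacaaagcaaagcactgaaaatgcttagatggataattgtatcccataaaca

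The remaining tested tRNA genes, for valine, leucine, isoleucine, methionine, alanine, serine, glutamate and threonine, were not called by either tool. The asparagine gene mt-Tn had 17 counts over the WT and 27 over the Pon2-/- libraries and did not pass edgeR's filter.

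Nuclear genes that transcribe or copy mitochondrial DNA or process its RNA were counted beside the members. All 36 on the list passed edgeR's filter, at mean levels of 3.65 to 414 CPM. None was called by edgeR, against 0.203% of all genes tested, or by DESeq2, against 1.77% of the genes it gave an adjusted p. None separated the genotypes, against 0.633% of all genes tested. At an unadjusted p below 0.05 edgeR listed 2 of the 36, against 3.13% of all genes tested, and 18 had a fitted change above 0 and 18 below, with a median of -0.03. The mitochondrial RNA polymerase gene Polrmt ranged over 4.33 to 36.2 CPM in WT and 2.16 to 28.3 CPM in Pon2-/-, with a log2 difference of -0.83 (SE 0.79). The packaging and transcription factor gene Tfam had 127 ± 45.5 and 86.6 ± 51.9 CPM, a log2 difference of -0.55 (SE 0.35). For the transcription factor gene Tfb2m the log2 difference was 0.37 (SE 0.69), and for Lrpprc, which stabilises mitochondrial messengers, 0.14 (SE 0.38).

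The 2 with an unadjusted p below 0.05 in edgeR were Tefm, an elongation factor of the mitochondrial polymerase, and Mterf4, which acts in assembly of the mitochondrial ribosome; they were named after their values were seen. Tefm averaged 66.0 ± 25.2 CPM in WT and 30.1 ± 23.0 CPM in Pon2-/-, and Mterf4 ranged from 44.4 to 79.6 CPM in WT and from 29.3 to 54.6 CPM in Pon2-/-. The genotypes overlapped for both, and the adjusted p in edgeR's quasi-likelihood test was 1.00 for each. The two-sided exact permutation test gave an unadjusted p below 0.05 for 3 of the 36, against 5.87% of all genes tested. These were Tefm and Mterf4, lower in Pon2-/-, and Ptcd1, higher in Pon2-/- and also named after its values were seen. Ptcd1 had medians of 10.7 CPM in WT and 28.8 CPM in Pon2-/-, with an unadjusted p of 0.0173 in that test. Its genotypes overlapped, with 5 of 6 WT mice below the lowest Pon2-/- mouse.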

How the data were processed

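Per the labels and methods, the authors checked the reads with FastQC 0.11.5, trimmed them with Trimmomatic 0.36 and aligned them with STAR 2.5.3a to GRCm38.p5, and deposited 1 table of gene counts per mouse. The deposited counts are whole and not normalized; the column is not stated to be stranded, and the 1 blank line in each file held no counts. The wells of a mouse were together in 1 table. No 2 libraries of a genotype matched within sampling noise.

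Genes were tested with edgeR 4.0.16 (quasi-likelihood, TMM scaling, filterByExpr), and with DESeq2 1.42.0 as an alternative. CPM use TMM library sizes; permutation tests used log2 CPM with a prior count of 2. Each SE is the absolute log2 difference divided by the square root of edgeR's quasi-likelihood F, not a separately estimated error. P-values measure the spread between mice. The test was checked on simulated counts. Windows and copies (blastn 2.17.0, at least 90% identity over 50% of the length) were sought in GENCODE M21 transcripts in place of the genome. The genes described one by one are those called or not overlapping, both rRNA genes, mt-Nd6, the 3 protein and 3 tRNA genes with the highest mean CPM, copies of these, Pon2, and 4 genes of the nuclear list. The genes mt-Tr, mt-Tf, mt-Ts2, Tefm, Mterf4 and Ptcd1 were added after their values were seen. Members and lists were chosen with earlier results of these data known. Gapdh, 479 ± 82.5 CPM in WT and 493 ± 74.8 CPM in Pon2-/-, served as a reference gene.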

Additional observations from a re-analysis of the deposited data

Results flagged for a closer look

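Among 37 groups of 6 mice examined, 8 values lay farther from the other mice of their group than Dixon's 95% critical value of 0.625 allows; chance alone marks about 1 in 20 groups. In WT, the tRNA share of counts was 0.0122% in replicate 6, against 0.0215% to 0.0258% in the others. WT replicate 3 was high in mt-Tc, at 25.4 CPM against 5.75 to 10.5, in mt-Tf, at 5.85 CPM against 0.290 to 1.69, and in mt-Tr, at 5.57 CPM against 0.158 to 1.33. Pon2-/- replicate 1 was high in mt-Tc, at 96.6 CPM against 4.31 to 9.25, in mt-Tf, at 57.1 CPM against 3.06 to 13.9, and in mt-Tr, at 0.239 CPM against 0 to 0.0863. Pon2-/- replicate 5 was low in Pon2, at 1.16 CPM against 28.4 to 33.1 in the other Pon2-/- mice.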

How the results depend on the processing

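The count of genes called by edgeR was 24, and 8 with every gene of at least 1 read, 304 with DESeq2 and 5 with a replicate block; it was 20 to 28 when 1 mouse was left out. Members called were 1, and 0 with every gene of at least 1 read, 3 with DESeq2 and 0 with the replicate block, and stayed at 1 in every fit without 1 mouse. Nuclear copies called went from 1 to 0 without the filter and with the block. Deviations of same-numbered mice had correlations of 0.00 to 0.04, and 1 of 6 pairs matched best. The labels do not say whether equal numbers share a batch, and such correlations cannot show that none was shared. Under the block, edgeR's adjusted p was 0.989 for mt-Nd3 and 0.309 for Gm28438. There mt-Rnr1 changed by -0.0086 on the log2 scale. Single members below p = 0.05 in the exact permutation test numbered 4 to 8 without 1 mouse; the 8 came without Pon2-/- replicate 3 and added mt-Tv, mt-Tn, mt-Co1 and mt-Nd4. Without WT replicate 3 they numbered 6. The log2 difference ranged from -0.17 to 0.17 for mt-Rnr1, -0.055 to 0.16 for mt-Rnr2, -0.25 to 0.056 for mt-Nd6 and -0.66 to 1.40 for mt-Tc when 1 mouse was left out. Without both WT replicate 3 and Pon2-/- replicate 1, a setting chosen after seeing the data, it was -0.12, -0.10 and -0.23 for mt-Rnr1, mt-Rnr2 and mt-Tc, and the difference in mitochondrial share was 0.0689 percentage points. That share difference was 0.180 to 1.08 points and the log2 rRNA ratio difference 0.02 to 0.12 without 1 mouse. Adjusted p for mt-Nd3 was 0.0156 to 0.0260 in those edgeR fits. For mt-Tf it was 0.606 to 1.00, with log2 differences of 2.04 to 4.25. Pon2 was called without Pon2-/- replicate 5 (adjusted p 0.0295, log2 difference -1.88). The unique share was 66.1% with windows of 36 bases, 69.8% with 75 and 62.1% when 1 mismatch was allowed. The causes were not tested. At this depth the floor was 3 counts in a library.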
